A study of Mus musculus with 5 samples.

Results

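The lysyl oxidases Lox, Loxl1, Loxl2, Loxl3 and Loxl4, the lysyl hydroxylases Plod1, Plod2 and Plod3, and the collagen chaperone Serpinh1 were examined in mouse gliomas that carried mutant or wild-type IDH1. These 9 genes were chosen by symbol, and 8 of them were named by probes of the array and tested among 16917 genes; Loxl2 was not analysed here. Whole-tumour RNA was profiled on Illumina BeadArrays in 5 gliomas, of which 3 expressed mutant IDH1 (mutIDH1) and 2 expressed wild-type IDH1 (wtIDH1), the control group of the study. Both groups were raised in Ntva_Ink4a/Arf-/- mice of a mixed FVB/N, C57BL6, BALB/C and 129 background (Ink4a/Arf is the tumour suppressor locus of Cdkn2a), the controls included. Both also received PDGFa and shp53, a construct named for a short hairpin against p53, from RCAS viruses released by DF1 chicken fibroblasts that were injected into the mice; these viruses enter only cells that display the tva receptor, which in Ntva mice is driven by the promoter of nestin, a gene of neural progenitors. The mice were untreated and were followed until they fell ill; no age is given. Each sample has its own tumour code and was taken as a separate tumour.

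Collagens and elastin gain their strength from covalent crosslinks between lysine residues, and the enzymes described here build them in sequence. Inside the endoplasmic reticulum lysyl hydroxylases, which need 2-oxoglutarate, iron and oxygen, add hydroxyl groups to collagen lysines, and Serpinh1 (HSP47) holds the folded triple helix until it leaves. Outside the cell lysyl oxidases, copper enzymes, oxidise lysine and hydroxylysine so that neighbouring chains join. In normal brain fibrillar collagen is largely confined to vessels and meninges, and in tumours crosslinked collagen stiffens the tissue. IDH1 mutants make 2-hydroxyglutarate, which resembles 2-oxoglutarate. The arrays measured transcripts, not the activity of the enzymes.

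The start sites of the members are shown as sequence for 3 genes with contrasting results, Serpinh1, whose transcript fell, Plod1, which missed the threshold, and Plod3, which did not differ detectably. Of the 9 members, 4 had a RefSeq promoter window that could be used, each running from 250 bases before to 50 bases after the start in assembly GRCm38.p6. Serpinh1 lies at chr7:99353190-99353489 on the minus strand, Plod1 at chr4:147936727-147937026 on the minus strand and Plod3 at chr5:136986769-136987068 on the plus strand. The lines run 5′ to 3′ along the gene's strand, and capitals mark the letters ACGTG or GCGTG on either strand, the core that hypoxia-inducible factors bind. Hypoxia-inducible factors are known regulators of Lox and of the lysyl hydroxylases, which is why this core was searched.
Serpinh1: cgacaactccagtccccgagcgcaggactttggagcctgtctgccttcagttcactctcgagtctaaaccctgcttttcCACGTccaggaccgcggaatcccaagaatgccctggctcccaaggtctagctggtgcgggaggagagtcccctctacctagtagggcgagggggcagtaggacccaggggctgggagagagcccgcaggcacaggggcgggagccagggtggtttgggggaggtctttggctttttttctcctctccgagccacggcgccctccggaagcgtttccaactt
Plod1: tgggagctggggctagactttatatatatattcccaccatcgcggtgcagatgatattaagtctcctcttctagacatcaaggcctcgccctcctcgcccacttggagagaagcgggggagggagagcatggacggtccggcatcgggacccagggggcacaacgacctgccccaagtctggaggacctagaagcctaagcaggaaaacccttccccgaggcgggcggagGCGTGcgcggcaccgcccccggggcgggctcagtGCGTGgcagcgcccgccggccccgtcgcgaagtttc
Plod3: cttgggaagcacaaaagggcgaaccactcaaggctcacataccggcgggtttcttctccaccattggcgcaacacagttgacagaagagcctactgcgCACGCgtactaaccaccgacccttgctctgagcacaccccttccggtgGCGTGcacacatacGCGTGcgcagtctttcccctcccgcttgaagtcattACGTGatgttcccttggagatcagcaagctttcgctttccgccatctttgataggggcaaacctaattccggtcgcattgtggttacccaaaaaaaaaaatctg
Serpinh1 held 1 match, Plod1 held 2 and Plod3 held 4, and the Loxl4 window, not shown, held 1. Among 32851 mouse promoter windows of this length 43.8% held at least 1 match, so its presence does not set these windows apart, and a match of letters is not a bound site. Lox was not among the 4 members with a window that could be used. Whether the matches bear on the differences was not tested.

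Lox and Serpinh1 fell in mutIDH1 gliomas, Loxl1, Plod1 and Plod2 had lower means that missed the threshold, and Plod3, Loxl3 and Loxl4 showed no difference that passed. A gene was called when limma's adjusted p (Benjamini-Hochberg over all 16917 genes) was under 0.05; 0.899% of all genes fell by this rule and 0.449% rose, against 2 and 0 of the 8 members measured (5 and 0 at an unadjusted p under 0.05, by which 7.25% of all genes were lower and 7.11% were higher). The median difference of the 8 members was −0.50 on the log2 scale, against 0.014 over all genes tested. Values are log2 signals, differences are mutIDH1 minus wtIDH1 with the moderated standard error (SE) on 3 and 2 samples, and signals up to an estimated background of 7.53 were treated as not above background. Background had not been subtracted from the signals, which compresses the differences of dim genes. Groups did not overlap, with mutIDH1 lower, for 5 members, a pattern met by 14.0% of all genes, and did not overlap with mutIDH1 higher for 1, a pattern met by 16.7%.

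**Figure D1:**
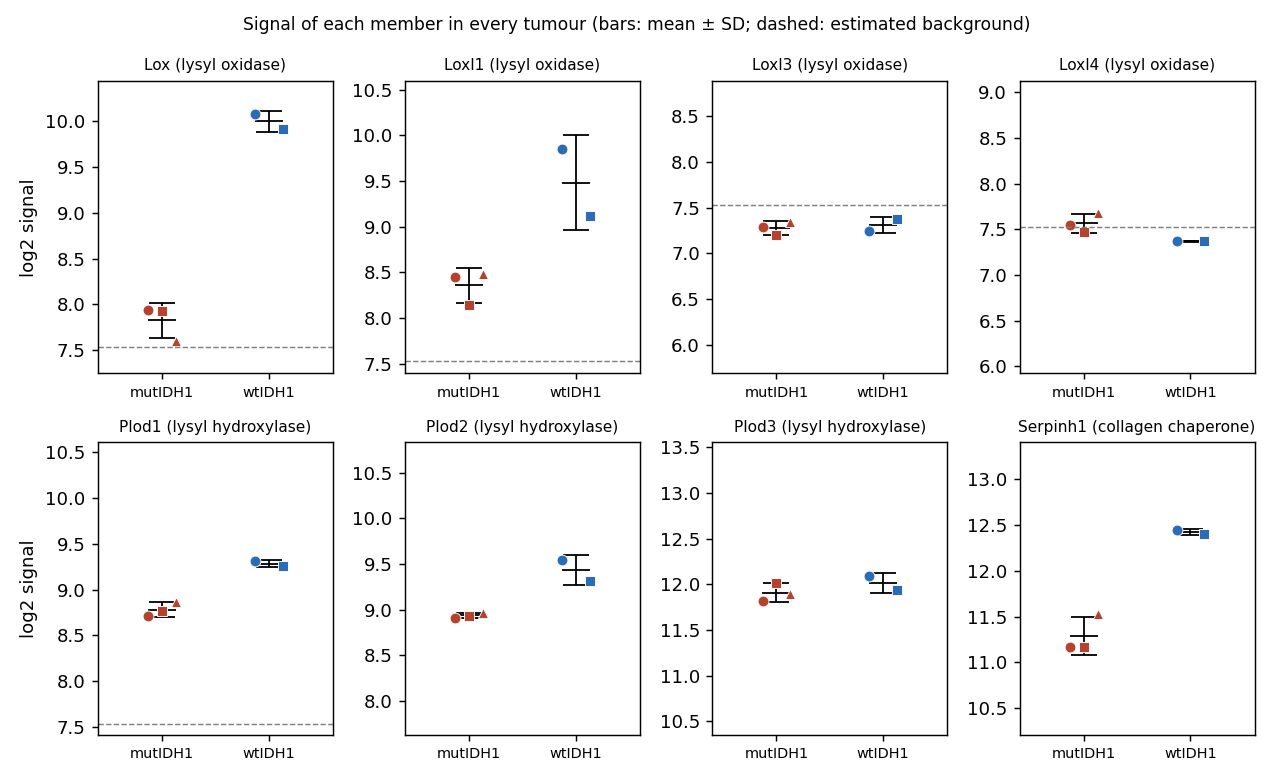
Log2 signal (vertical axes, each spanning the same range) of the 8 measured members in every tumour, with mutIDH1 to the left of wtIDH1; symbols mark samples 1, 2 and 3, bars the mean ± SD and the dashed line the estimated background of 7.53. Lox, Loxl1, Plod1, Plod2 and Serpinh1 lie lower in all 3 mutIDH1 tumours than in both wtIDH1 tumours, Loxl4 lies higher and close to background, and Loxl3 and Plod3 overlap.

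Lox, the founding lysyl oxidase, which is secreted as a proenzyme and acts on fibrillar collagen and elastin, showed the widest separation. Its signal was 7.94, 7.93 and 7.60 in the mutIDH1 tumours, against 10.08 and 9.92 in the wtIDH1 tumours. All 3 mutIDH1 values lay just above background, and 1.98 log2 units separated the highest of them from the lower wtIDH1 value. The means were 7.82 ± 0.19 (SD, n = 3) and 10.00 ± 0.12 (SD, n = 2), a difference of −2.18 ± 0.13 (SE), or 4.53-fold lower signal in mutIDH1. The limma adjusted p was 0.0103, and 0.0532% of tested genes had a smaller p. By size it was the 14th largest fall of all genes tested. After normexp background correction the difference was −2.68, and it ranged from −2.26 to −2.07 when each tumour was left out in turn. The adjusted p was 0.0502 without mutIDH1 sample 1, 0.119 without mutIDH1 sample 2 and 0.0780 without mutIDH1 sample 3; without sample 2 or sample 3 no gene of the array passed by limma, where 1747 and 1849 had an unadjusted p under 0.05.

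Loxl1, the lysyl oxidase best known for its part in elastic fibre assembly, was lower on its brightest probe but varied between the wtIDH1 tumours. Its signal was 8.45, 8.14 and 8.49 in the mutIDH1 tumours, against 9.85 and 9.12 in the wtIDH1 tumours. The groups did not overlap, yet the wtIDH1 tumours stood 0.73 apart, more than the 0.63 that separated the groups. The difference was −1.12 ± 0.24 (SE), with a 95% confidence interval from −1.71 to −0.53, and missed the threshold (limma adjusted p = 0.110). With wtIDH1 sample 2 as the only control it was −0.76 (adjusted p = 0.103), and with wtIDH1 sample 1 as the only control it was −1.49 (adjusted p = 0.0220). With all tumours it passed under trended and robust moderation (adjusted p = 0.0361). Its second probe was below background in every tumour and fell under the filter on dim probes.

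Loxl3 and Loxl4, the remaining lysyl oxidases measured, were at the edge of detection. Loxl3 was at or under background in all 5 tumours, between 7.20 and 7.34 in mutIDH1 and at 7.25 and 7.37 in wtIDH1, so no fold is given. Loxl4 read 7.55, 7.47 and 7.68 in the mutIDH1 tumours, against 7.37 and 7.37 in the wtIDH1 tumours. That left 2 of 3 mutIDH1 tumours and neither wtIDH1 tumour above background, and the mutIDH1 mean was at least 1.03-fold higher. The limma adjusted p for Loxl4 was 0.409, and its other probes differed by 0.031 and 0.042. Of the lysyl oxidases measured, Lox and Loxl1 thus had signal above background in every tumour.

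Plod1, the lysyl hydroxylase of the helical crosslinking sites of collagen, was lower by a modest and even amount. Its signal was 8.71, 8.77 and 8.86 in the mutIDH1 tumours, against 9.31 and 9.26 in the wtIDH1 tumours. The gap of 0.40 between the groups exceeded the range within either group (0.15 and 0.048), and the difference of −0.50 ± 0.08 (SE; 95% confidence interval −0.70 to −0.31) just missed the threshold (limma adjusted p = 0.0592). It passed with cyclic loess (adjusted p = 0.0494) and with the mean of each gene's probes (adjusted p = 0.0485), although Plod1 itself had 1 probe. It missed the threshold with normexp (limma adjusted p = 0.0821), with trended and robust moderation (adjusted p = 0.112) and with sex as a covariate (adjusted p = 0.115).

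Plod2, the hydroxylase of the telopeptide lysines that set the kind of crosslink, resembled Plod1. Its signal was 8.91, 8.93 and 8.97 in the mutIDH1 tumours, against 9.55 and 9.32 in the wtIDH1 tumours. The mutIDH1 tumours were nearly level and both wtIDH1 tumours stood above them. The difference was −0.50 ± 0.09 (SE; 95% confidence interval −0.72 to −0.27) and missed the threshold (limma adjusted p = 0.0831). Without wtIDH1 sample 2 it was −0.61 and passed (adjusted p = 0.0439). A second probe gave −0.44 (adjusted p = 0.180, over all probes), while the remaining probe, close to background, gave 0.045, and the mean of the 3 probes gave −0.30.

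Plod3, which adds both hydroxyl groups and sugars to collagen lysines, was bright and overlapped between the groups. Its signal was 11.82, 12.02 and 11.89 in the mutIDH1 tumours, against 12.09 and 11.94 in the wtIDH1 tumours. The difference was −0.10 ± 0.09 (SE; limma adjusted p = 0.720), and its 95% confidence interval ran from −0.34 to 0.13. The interval does not reach the differences of the brightest probes of Plod1 and Plod2. It overlaps their intervals, which end at −0.31 and −0.27, and it holds the −0.30 given by the mean of the Plod2 probes. A test of the difference between the genes was not made.

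Serpinh1, the endoplasmic reticulum chaperone that is specific to collagen, fell on both of its probes. The brighter probe read 11.16, 11.17 and 11.53 in the mutIDH1 tumours, against 12.45 and 12.40 in the wtIDH1 tumours. Among the mutIDH1 tumours sample 3 was highest, and the wtIDH1 tumours were nearly equal. The means were 11.29 ± 0.21 (SD, n = 3) and 12.43 ± 0.03 (SD, n = 2), a difference of −1.14 ± 0.13 (SE) or 2.20-fold lower signal in mutIDH1, with a limma adjusted p of 0.0355. The dimmer probe read 8.69, 8.66 and 9.01 in the mutIDH1 tumours, against 9.84 and 9.88 in the wtIDH1 tumours, a difference of −1.07 ± 0.12 (SE) that also passed when every probe was tested on its own (adjusted p = 0.0355). The call was lost with sex as a covariate (−1.15, adjusted p = 0.0764), without each mutIDH1 sample in turn (adjusted p from 0.0863 to 0.185) and without wtIDH1 sample 1 (adjusted p = 0.0566), while the difference stayed between −1.26 and −1.07.

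**Figure D2:**
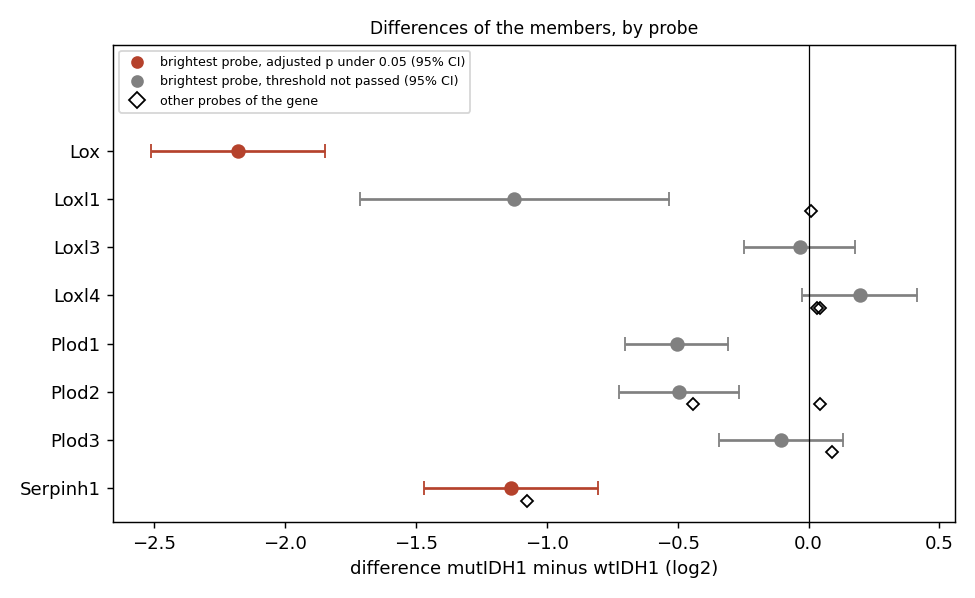
Difference of mutIDH1 minus wtIDH1 (log2, horizontal axis) for the brightest probe of each member with its 95% confidence interval, and as open diamonds the gene's other probes. Lox at −2.18 and Serpinh1 at −1.14 passed the threshold, and the second Serpinh1 probe lies close to the first, whereas the other Loxl1 probe and 1 Plod2 probe lie near 0.

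Of the 15 probes for the members, 14 passed the filter on dim probes and 8 were above background in all 5 tumours. All of those 8 were lower in mutIDH1, and the other 7, at or under background in at least 1 tumour, included the 6 that were higher. The 8 are not separate genes, since Plod2 and Serpinh1 each have more than 1 probe among them, and they include the Plod3 probe whose groups overlapped. Of all 16917 genes tested, 7715 were lower and 9202 higher, and the share among bright probes alone was not taken. Where groups do not overlap, as for Lox, Loxl1, Loxl4, Plod1, Plod2 and Serpinh1, leaving out 1 tumour cannot turn the sign. Of the members whose groups overlapped, Plod3 stayed between −0.18 and −0.030. Loxl3 turned to 0.0055 without mutIDH1 sample 2 and to 0.030 without wtIDH1 sample 2.

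**Figure D3:**
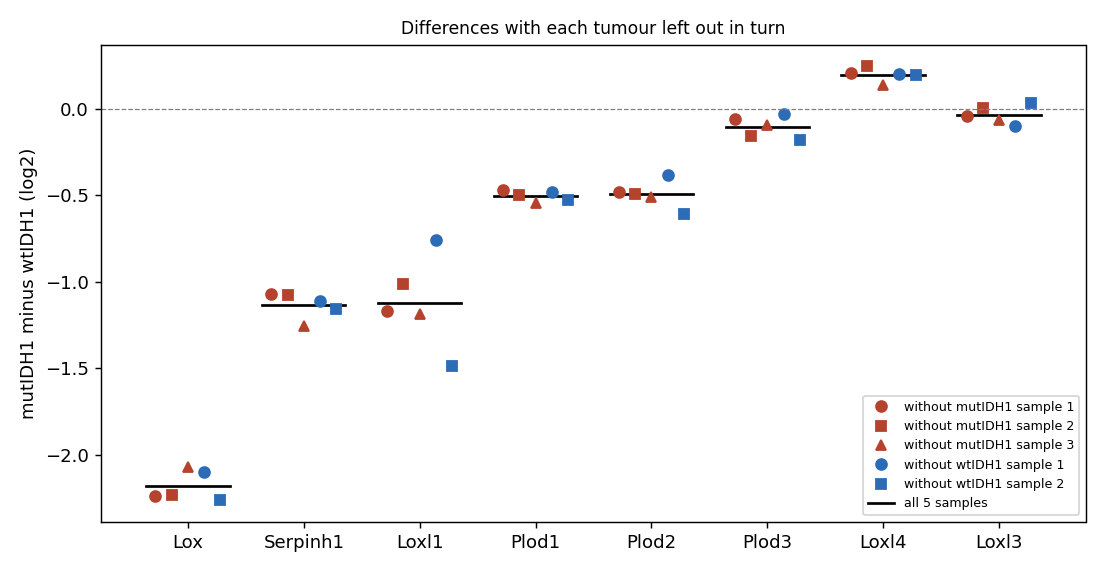
Difference of mutIDH1 minus wtIDH1 (log2, vertical axis) for the 8 measured members with all 5 tumours (black line) and with each tumour left out (symbols). Lox stays between −2.26 and −2.07 and Serpinh1 between −1.26 and −1.07, while Loxl1 spreads from −1.49 to −0.76 according to which wtIDH1 tumour is left out.

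The genes whose profiles over the 5 tumours lay closest to each called member were found by the root mean square difference of log2 signals centred on each gene's mean. For Lox these were En1, a homeobox gene of the midbrain and hindbrain (0.15), Pdlim1, a PDZ and LIM protein of the actin cytoskeleton (0.20), Skap2, a leukocyte adaptor (0.21), Mgp, matrix Gla protein (0.22), and Mmp10, a matrix metalloproteinase (0.22). For Serpinh1 they were Fn1, fibronectin (0.047), C4a, a complement component with a near-identical copy (0.090), Emcn, endomucin of endothelium (0.097), Ifitm3, an interferon-induced membrane protein (0.10), and Vwf, von Willebrand factor (0.11). Fn1 read 8.97, 9.07 and 9.39 in mutIDH1, against 10.21 and 10.21 in wtIDH1. The higher value in mutIDH1 sample 3, as in Serpinh1, follows from choosing genes by profile. The mean of the Fn1 probes gave a smaller difference, −0.34 (limma adjusted p = 0.116), than the −1.07 of its brightest probe.

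Other enzymes and helpers of collagen maturation mostly did not pass. Of 28 listed genes 24 were measured, of which 1 fell and 0 rose by limma over all genes (10 and 1 at an unadjusted p under 0.05), with a median difference of −0.16. The gene that fell was Pcolce, a secreted enhancer of procollagen C-proteinase. Pcolce read 8.14, 7.84 and 8.02 in mutIDH1, against 9.25 and 9.29 in wtIDH1, a difference of −1.27 ± 0.11 (SE; limma adjusted p = 0.0197). Its call was lost without each mutIDH1 sample in turn (adjusted p from 0.0502 to 0.135). The proteinase it enhances, Bmp1, gave 0.16 ± 0.24 with overlapping groups (limma adjusted p = 0.852).

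Of the prolyl hydroxylases, which stabilise the collagen helix and like the lysyl hydroxylases use 2-oxoglutarate, none passed. P4ha2, a catalytic subunit of prolyl 4-hydroxylase, read 8.07, 7.90 and 7.66 in mutIDH1, against 8.64 and 9.0 in wtIDH1, a difference of −0.94 ± 0.16 (SE; limma adjusted p = 0.0745). The companion subunit P4ha1 gave −0.14, and P4hb, the partner of the catalytic subunits, gave −0.36. P3h3, a prolyl 3-hydroxylase family member, gave −0.50 ± 0.08 (SE; limma adjusted p = 0.0569). P4ha2 passed with normexp (−1.26, adjusted p = 0.0486) and with trended moderation, but the mean of its probes gave −0.58 and missed (limma adjusted p = 0.0594). P3h3 passed with the mean of each gene's probes, where its difference was unchanged at −0.50, and missed with trended moderation (limma adjusted p = 0.113).

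Further genes of the list that were closest to passing were Tgm2, tissue transglutaminase, which crosslinks matrix proteins through glutamine, at −0.96 ± 0.23 (SE; limma adjusted p = 0.138), and Colgalt2, a collagen galactosyltransferase, at −0.29 ± 0.08 (SE; limma adjusted p = 0.163). Groups did not overlap, with mutIDH1 lower, for 11 of the 24, a pattern met by 14.0% of all genes. With mutIDH1 higher they did not overlap for 1, a pattern met by 16.7% of all genes.

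Among the substrates of these enzymes, chains of types I, III and IV collagen fell. Of 16 listed collagen and elastic fibre genes 13 were measured, of which 4 fell and 0 rose by limma (8 and 0 at an unadjusted p under 0.05), with a median difference of −0.48. Col1a1, a chain of type I collagen, read 7.80, 7.59 and 7.54 in mutIDH1, against 9.27 and 9.09 in wtIDH1, a difference of −1.53 ± 0.11 (SE; limma adjusted p = 0.0149). The basement membrane chains Col4a1 and Col4a2 changed by −1.32 ± 0.14 and −1.18 ± 0.17 (SE; limma adjusted p = 0.0288 and 0.0477). Without each mutIDH1 sample in turn the calls of Col1a1 (adjusted p from 0.0502 to 0.137) and Col4a1 (adjusted p from 0.0858 to 0.185) were lost. Col3a1, type III collagen, read 7.57, 7.30 and 7.35 in mutIDH1, of which 1 of 3 was above background, against 8.23 and 8.19 in wtIDH1. It fell by 0.80 ± 0.10 (SE; limma adjusted p = 0.0410), although its call was lost with any tumour left out. The call of Col4a2 was lost likewise with any tumour left out.

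Of the substrates that did not pass, Col5a1 gave −1.03 ± 0.18 (SE; limma adjusted p = 0.0746). Col1a2 and Col5a2 did not exceed background in any mutIDH1 tumour and were at least 1.21-fold and 1.06-fold higher in wtIDH1 (limma adjusted p = 0.110 and 0.117). Eln, elastin, read 8.36, 8.37 and 8.49 in mutIDH1, against 9.21 and 8.62 in wtIDH1, a difference of −0.51 ± 0.18 (SE; limma adjusted p = 0.283). Like Loxl1, Eln was higher in wtIDH1 sample 1 than in wtIDH1 sample 2, and its difference was −0.81 with wtIDH1 sample 1 as the only control (adjusted p = 0.0316) and −0.21 with the other.

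**Figure D4:**
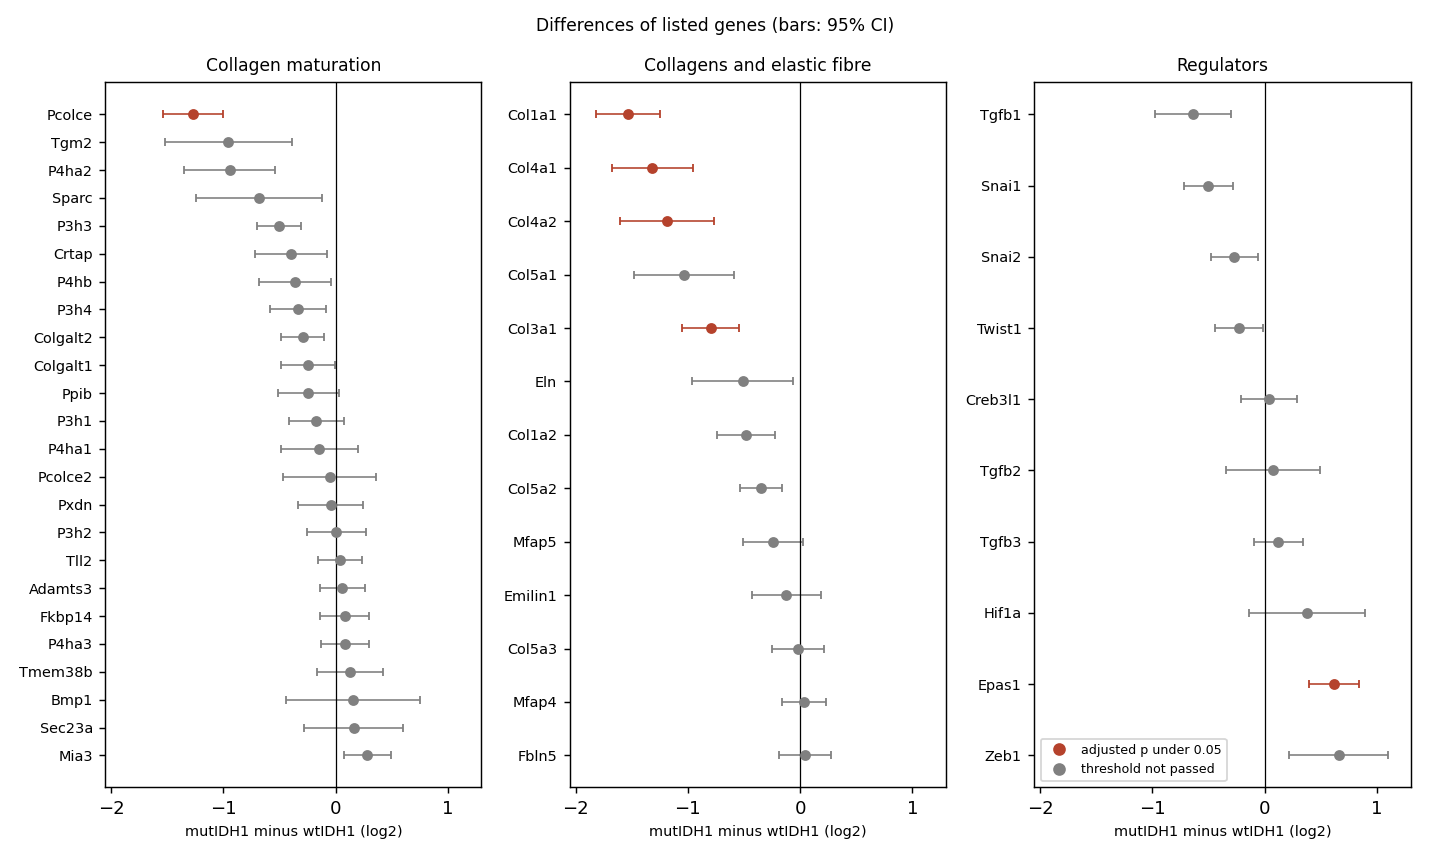
Difference of mutIDH1 minus wtIDH1 (log2, horizontal axes) with 95% confidence intervals for the measured genes of collagen maturation (24), of collagens and elastic fibres (13) and of regulators (10). Pcolce, Col1a1, Col4a1, Col4a2 and Col3a1 fell and Epas1 rose, and the intervals of most other genes of collagen maturation cross or come near 0.

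Regulators known to act on these enzymes showed differences of both signs. Of 10 listed, 1 rose and 0 fell by limma (2 and 4 at an unadjusted p under 0.05), with a median difference of 0.056. Epas1, hypoxia-inducible factor 2 alpha, read 8.43, 8.22 and 8.36 in mutIDH1, against 7.74 and 7.68 in wtIDH1, a rise of 0.62 ± 0.09 (SE; limma adjusted p = 0.0478) whose call was lost with any tumour left out. Hif1a gave 0.38 ± 0.21 with overlapping groups (limma adjusted p = 0.513). Snai1, a repressor of epithelial genes, was above background in 1 of 3 mutIDH1 tumours and in both wtIDH1 tumours and gave −0.50 ± 0.09 (SE; limma adjusted p = 0.0746). Zeb1, another such repressor, gave 0.66 ± 0.18 (SE; limma adjusted p = 0.171). Tgfb1, a growth factor that induces collagen and Lox in fibroblasts, gave −0.64 ± 0.14 (SE; limma adjusted p = 0.110). Snai2 did not exceed background in any mutIDH1 tumour and was at least 1.09-fold higher in wtIDH1 (limma adjusted p = 0.226).

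Summed marker levels of macrophages and of endothelium were also lower in mutIDH1. Since RNA came from whole tumours, fewer cells of a type and less RNA per cell cannot be told apart. The summed linear signal of 5 monocyte and macrophage markers, of which 4 fell by limma, ran from 1426 to 2554 in mutIDH1, against 6798 to 9691 in wtIDH1. The brightest of them in every tumour was Lyz2, the 1 that missed the threshold (limma adjusted p = 0.083). Lyz2 read 10.62, 10.33 and 9.30 in mutIDH1, against 12.05 and 12.58 in wtIDH1. The sum leans on Lyz2 and was not taken without it. The summed signal of 10 endothelial markers, of which 3 fell, ran from 8172 to 10218 in mutIDH1, against 14982 to 15217 in wtIDH1.

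Of 12 mural cell and fibroblast markers 3 fell, among them Acta2, smooth muscle actin, at −2.19, and Col1a1, which is also counted among the substrates. Dcn, decorin of fibroblasts, read 10.40, 9.18 and 9.32 in mutIDH1, against 11.81 in wtIDH1 sample 1 and 11.59 in wtIDH1 sample 2, with a limma adjusted p of 0.0815. The sum of that list overlapped between the groups (24300 to 26373 in mutIDH1 and 26240 to 28138 in wtIDH1), but Pdgfra, which glial precursors also express, carried from 49.7% to 76.1% of it. Without Pdgfra the other 11 markers summed to 6217 to 6388 in mutIDH1, against 11818 to 13208 in wtIDH1, and the groups did not overlap. That sum leans on genes bright in wtIDH1, such as Acta2 and Dcn, and was not taken without them. Of the 12 markers 9 had lower means in mutIDH1 and 3 had higher means. Besides Pdgfra the higher ones were Rgs5 (0.094) and Cspg4 (0.20), whose groups overlapped. No list of vascular, mural or myeloid markers had a measured gene at background in all tumours. The part of these cell types in the differences of Lox and Serpinh1 was not tested.

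**Figure D5:**
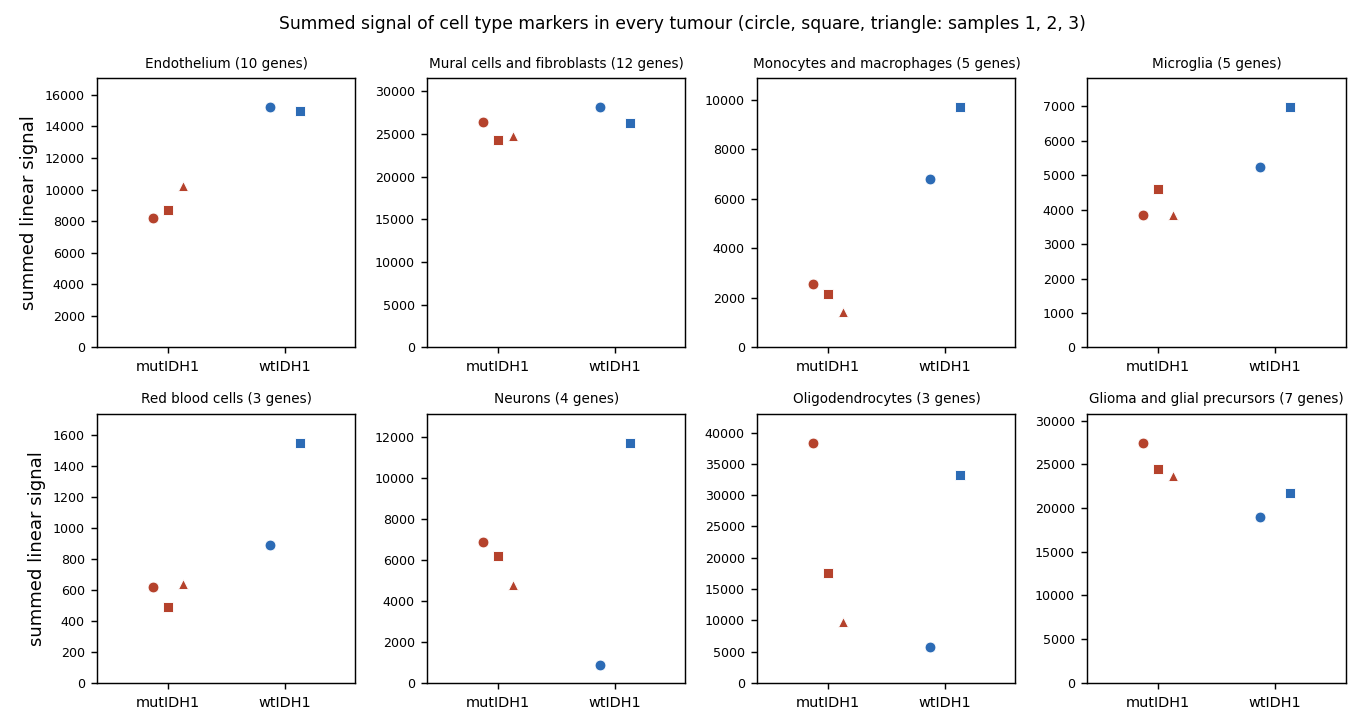
Summed linear signal (vertical axes from 0) of the measured markers of 8 cell types in every tumour, mutIDH1 to the left of wtIDH1, with symbols for samples 1, 2 and 3. Macrophage and endothelial sums are lower in all mutIDH1 tumours, and neuron and oligodendrocyte sums lie far apart between the wtIDH1 tumours.

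Tumour identity and tissue content were checked in the same way. Of 8 glioma and glial precursor markers 7 were measured, and all 7 gave signal above background in at least 1 tumour. All 7 had higher means in mutIDH1, with Sox2 rising by 0.99 ± 0.08 (SE, limma adjusted p = 0.0169). Their sum ran from 23616.5 to 27475.3 in mutIDH1, against 18946.8 to 21702.7 in wtIDH1. In mutIDH1 that sum leans on Sox10 and Gfap, whose groups overlapped. Gfap read 13.20, 12.69 and 12.31 in mutIDH1, against 10.38 and 12.65 in wtIDH1, and the sum was not taken without it. Neuron markers summed to 4760 to 6880 in mutIDH1, against 862 in wtIDH1 sample 1 and 11736 in wtIDH1 sample 2, with Snap25 and Tubb3 at background in all tumours. Oligodendrocyte markers summed to 9725 to 38399 in mutIDH1, against 5748 and 33227 in the same wtIDH1 tumours. The wtIDH1 tumours differed in these sums. Red blood cell markers summed to 489 to 640 in mutIDH1, against 890 and 1553 in wtIDH1, and microglia markers to 3835 to 4608 in mutIDH1, against 5230 and 6968 in wtIDH1, with 0 of 3 and 0 of 5 measured genes passing by limma (1 and 2 at an unadjusted p under 0.05). Of the microglia genes Fcrls was lower and Sall1 higher at an unadjusted p under 0.05, and Fcrls carried from 50.8% to 69.0% of the sum. Without Fcrls the sum ran from 1847 to 1887 in mutIDH1, against 1623 to 2255 in wtIDH1. Idh1 read 10.73 to 11.08 in mutIDH1, against 11.02 and 10.47 in wtIDH1, and no source used here says whether its probe reads the delivered IDH1. Pdgfa, the gene of the delivered growth factor, read 10.84, 10.82 and 10.85 in mutIDH1, against 11.53 and 11.52 in wtIDH1, a difference of −0.69 ± 0.07 (SE; limma adjusted p = 0.0227) whose call was lost with sex as a covariate and without each mutIDH1 sample in turn. Cdkn2a, a gene of the deleted locus, read 9.15, 9.53 and 9.78 in mutIDH1, against 10.22 and 9.62 in wtIDH1, above background in every tumour. The sources used here do not say whether the Pdgfa probe reads the delivered gene, or whether the Cdkn2a probe falls inside the deleted stretch.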

How the data were processed

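Biotin-labelled total RNA of 5 gliomas was measured on Illumina BeadArrays. The deposited table gives 1 log2 signal for each of 45281 probes. It was made by the authors with limma, per the submitters' processing notes, which state neither version nor steps. All arrays share 1 distribution (medians within 0.00069), as after quantile normalization, and a lowest linear signal of 120.2, so background was not subtracted. A further table had 10 columns of signals and detection p-values whose names match no single sample; it was not used.

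Probes were named through the platform annotation, with symbols updated by gene ID (34885 with 1 symbol, 18 with several, 10378 unnamed here; 34807 matched RefSeq). The dimmest 20% of probes by mean over all arrays were left out, and the brightest probe stood for a gene, which left 16917 genes. Background (7.53) is the mode of all signals plus 3 times the spread below it. Groups and sample numbers came from the titles, and the group difference was fitted by limma 3.58.1 (R 4.3.3; lmFit and eBayes, 2-sided, no covariate), with Benjamini-Hochberg adjustment and 3 residual degrees of freedom; the steps were tested on simulated data. Precision is limited by how few arrays there are, and p-values measure the spread between these tumours.

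The members and lists were chosen with earlier results of these data known. The text names all members and the called genes of each list with the next 4 by p. It also names the 5 closest profiles of each called member, and marker genes on which a result turns. Bmp1, P4ha1, P4hb, Hif1a, Acta2, Rgs5, Cspg4, Dcn, Lyz2, Sox2, Sox10, Gfap, Pdgfra, Fcrls, Sall1, Idh1, Pdgfa and Cdkn2a were chosen after their values were seen. Alternatives covered the filter, the probes per gene, normalization, background, moderation, sex (read from Xist), the sample number as a block and each sample left out; marker sums without Pdgfra or Fcrls were added after seeing the data.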

Additional observations from a re-analysis of the deposited data

How the results depend on the processing

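Over all genes 228 passed. The count was 363 with trended and robust moderation, 59 with sex as a covariate, 0 with the sample number as a block, and from 0 to 479 when 1 tumour was left out; the highest count came without wtIDH1 sample 2, where 234 fell and 245 rose, against 152 and 76 with all samples. Of the members 2 passed. The count was 1 with sex as a covariate (Lox), 0 with the block, and from 0 to 4 when 1 tumour was left out, with 0 without any of the 3 mutIDH1 samples, 1 without wtIDH1 sample 1 and 4 without wtIDH1 sample 2. Of the collagen maturation genes 1 passed, or 2 with the mean of a gene's probes, with normexp and with trended and robust moderation, 0 with the block, and from 0 to 1 when 1 tumour was left out. Every count of 0 is by limma; in the fit with the block 1562 genes had an unadjusted p under 0.05. The labels give the number no meaning beyond a name. Deviations of same-numbered samples from their group means correlated at −0.26 and 0.11 over genes, and those of mutIDH1 sample 3 and wtIDH1 sample 1 at 0.41. With 2 wtIDH1 tumours their deviations mirror each other, so these values cannot show whether the number marks a pairing. The fit with the block has no partner for mutIDH1 sample 3 and leaves 1 residual degree of freedom. Without 1 wtIDH1 sample, the lone control is assumed to vary like the mutIDH1 tumours. Of 671 recomputed differences of 48 named genes, 550 kept sign and side of the threshold, 99 lost and 19 gained a call, and 3 turned sign when 1 tumour was left out, where Loxl3 ranged from −0.098 to 0.030 and Idh1 from −0.10 to 0.45. Signal near background limits Lox in mutIDH1, and Loxl3 and Loxl4 in both groups.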
